A study of Mus musculus with 28 samples.

Results

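The genes described here are the 9 that carry or control phosphate transport in the kidney and were chosen by symbol: Slc34a1, Slc34a3, Slc20a1, Slc20a2, Slc9a3r1 (also called Nherf1), Pdzk1, Pth1r, Kl and Fgfr1. All 9 were among the 14845 genes of the deposited table and all 9 were among the 13495 genes tested. Expression had been measured by RNA-seq of whole kidneys of male mice in 28 libraries. The db/db Unx groups were db/db mice with a kidney removed (uninephrectomized), with 12 libraries at 26 weeks of age and 5 at 35 weeks. The db/m intact groups were db/m mice that kept both kidneys, with 5 libraries at 26 weeks and 6 at 35 weeks.

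The db/db mouse lacks the long form of the leptin receptor, is obese and diabetic, and was used in the series, uninephrectomized, to model severe kidney disease of diabetes. Every db/db mouse was uninephrectomized and every db/m mouse was intact, so genotype and surgery cannot be told apart. The background strain is not stated in the labels used here, nor is whether each library came from a separate animal, so the p-values measure how much libraries vary, some of which may be technical. Estimated depth was 21.8 to 30.8 M counts per library (M, mega). In db/db Unx at 35 weeks, replicates 3, 5 and 6 stood apart from the other 25 libraries on the second principal component.

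Filtered phosphate is taken back from the urine in the proximal tubule by sodium-phosphate cotransporters of the brush border, which are held in place by PDZ scaffold proteins and withdrawn from the membrane when parathyroid hormone or FGF23 act on the cell. FGF23 is a bone hormone that needs the co-receptor Klotho beside an FGF receptor, and Klotho in the kidney is made in distal and proximal tubule cells. Loss of renal Klotho and raised FGF23 are known features of chronic kidney disease.

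Read per kilobase of exon, the scale on which genes can be compared, the 9 genes kept the same order in all 4 groups: Slc34a1, Pdzk1, Pth1r, Slc9a3r1, Kl, Slc34a3, Slc20a2, Slc20a1 and Fgfr1, highest first. Slc34a1 averaged 982 ± 66.8 units per kb in db/db Unx at 26 weeks (SD, n = 12) and 1173 ± 58.9 in db/m intact (SD, n = 5), and 839 ± 69.4 in db/db Unx at 35 weeks (SD, n = 5) and 1226 ± 42.9 in db/m intact (SD, n = 6). It ranked between 9 and 13 by deposited value in every library. At the other end Fgfr1 averaged 2.79 ± 0.438 units per kb in db/db Unx and 2.52 ± 0.264 in db/m intact at 26 weeks, at percentiles 42.1 and 41.0 of all genes. Pth1r and Slc9a3r1 overlapped between libraries in every group and are not separated by this order, and Slc20a1 and Fgfr1 overlapped in both db/m groups. With the longest transcript as the length, Slc20a1 came below Fgfr1 in db/m at 35 weeks, at 4.72 against 4.78 mean units per kb.

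**Figure D1:**
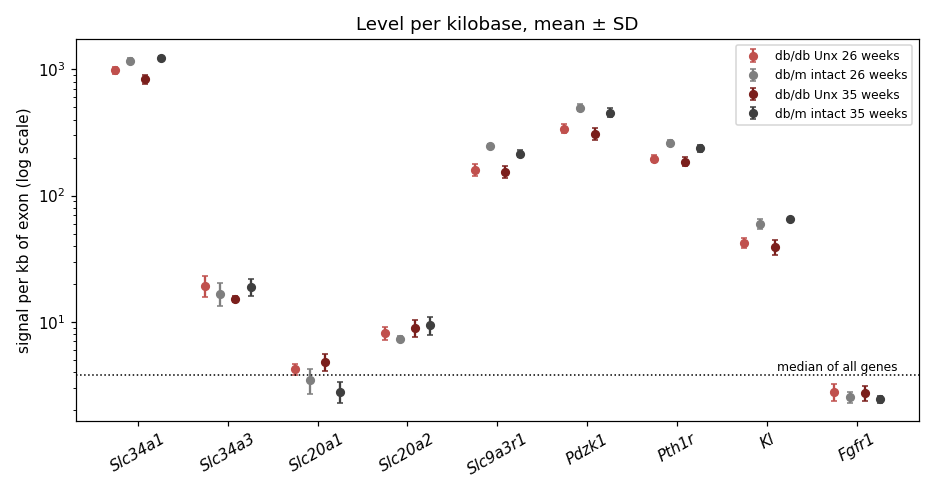
Mean deposited signal per kilobase of exon, on a log axis, for the 9 genes in the 4 groups. Bars are SDs over 12, 5, 5 and 6 libraries and the dotted line is the median of all genes in db/m at 26 weeks. Slc34a1 was the highest in each group and Fgfr1 the lowest, below the median of all genes. Slc20a1 was also below the median in both db/m groups.

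In the disease comparison, limma called 6 of the 9 genes at 26 weeks and the same 6 at 35 weeks at an adjusted p below 0.05. Of these, 5 were lower in db/db Unx (Slc34a1, Slc9a3r1, Pdzk1, Pth1r and Kl) and 1 was higher (Slc20a1), on the deposited scale; after quantile normalization Slc34a1 was higher in db/db Unx at 26 weeks. Slc34a3, Slc20a2 and Fgfr1 were not called at either age. Among all genes tested, 34.9% were called at 26 weeks (17.7% lower and 17.2% higher) and 32.3% at 35 weeks (16.4% lower and 15.9% higher). At 26 weeks 5 of the 9 genes had all db/db Unx libraries below every db/m library and none had them all above, where 7.68% of all genes were wholly below, 5.11% wholly above and 12.8% either. At 35 weeks 5 genes were wholly below and Slc20a1 was wholly above, where 10.3% of all genes were wholly below, 7.84% wholly above and 18.1% either. The median log2 change of the 9 was -0.26 at 26 weeks and -0.36 at 35 weeks, against 0.020 and 0.012 over all genes tested. Because these are whole kidneys, fewer cells of a type and less RNA per cell cannot be told apart.

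**Figure D2:**
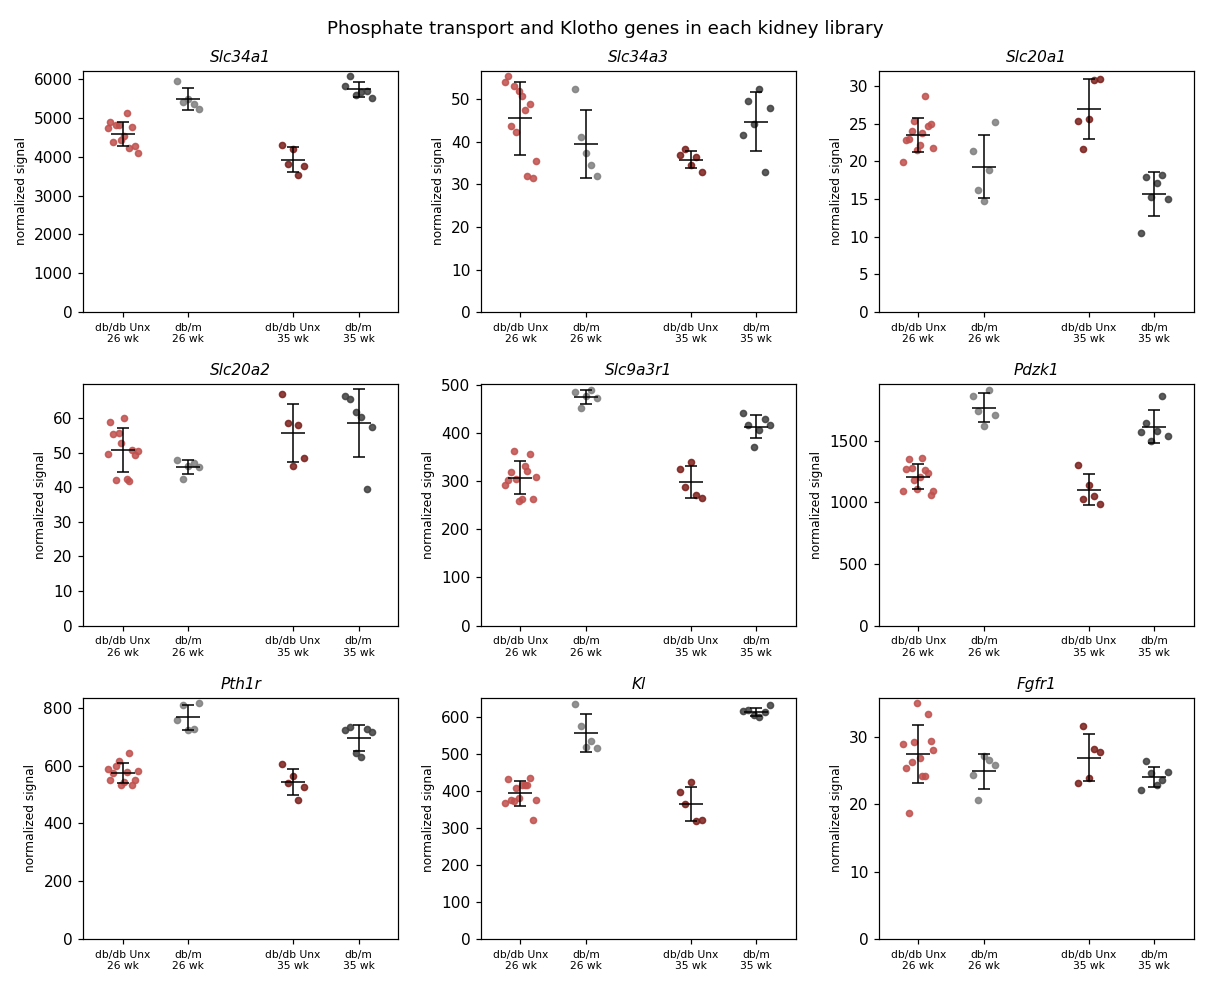
Deposited normalized signal of the 9 genes in each of the 28 libraries (points), with the mean and SD of each group, on axes that start at 0. For Slc34a1, Slc9a3r1, Pdzk1, Pth1r and Kl all db/db Unx libraries lay below all db/m libraries of the same age; for Slc34a1 this depends on the scaling, since under quantile normalization it was higher in db/db Unx at 26 weeks, by 0.20 on the log2 scale.

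Slc34a1 (ENSMUSG00000021490, GRCm38 chromosome 13, 55398187 to 55415592, plus strand) encodes NaPi-IIa, the main apical phosphate cotransporter of the proximal tubule. At 26 weeks its signal had a lowest value of 4091, a median of 4640 and a highest of 5122 in db/db Unx, and was 5947, 5415, 5492, 5349 and 5227 in the db/m libraries. All 12 db/db Unx libraries were below all 5 db/m libraries. At 35 weeks it was 4312, 3805, 4201, 3532 and 3763 in db/db Unx, against a lowest of 5522, a median of 5682 and a highest of 6085 in db/m, again with no overlap. As deposited it fell by 0.26 ± 0.05 on the log2 scale at 26 weeks (limma, adjusted p 2.74e-05) and by 0.55 ± 0.05 at 35 weeks (adjusted p 1.32e-10). The signal thus fell by 16.4% at 26 weeks and fell by 31.7% at 35 weeks. This direction depends on the scaling at 26 weeks: after quantile normalization the log2 change was 0.20 there (adjusted p 0.000445) and -0.11 at 35 weeks (adjusted p 0.0904). Its rank by value, which that method keeps, had a median of 10 in db/db Unx and 12 in db/m at 26 weeks, and 13 in db/db Unx and 11 in db/m at 35 weeks. After rescaling to the same sum the changes were -0.16 and -0.48, while that scaling moved the median of all genes to 0.11 and 0.076.

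Slc34a1 was also the 1 gene of the 9 whose disease comparison differed between the ages by a test of the difference itself. The log2 change at 35 weeks minus that at 26 weeks was -0.29 ± 0.07 (limma interaction, adjusted p 0.0424, where 0.156% of all genes were called lower, 0.393% higher and 0.548% in either direction). From 26 to 35 weeks it fell by 0.23 ± 0.05 in db/db Unx (limma, adjusted p 0.00158), where 6.14% of all genes were called lower, 5.16% higher and 11.3% in either direction. In db/m its change was 0.06 ± 0.05 (adjusted p 0.537), where 4.68% of all genes were called lower, 2.73% higher and 7.4% in either direction. All 5 db/db Unx libraries of 35 weeks were below the 26-week median, and 3 of them were below the whole 26-week range. Both calls depended on which libraries were fitted. Without replicates 3, 5 and 6 of db/db Unx at 35 weeks the age change was -0.18 (adjusted p 0.456) and the difference between ages was -0.24 (adjusted p 0.309). That difference also missed the threshold when 1 library was left out in 19 of 28 cases, with adjusted p between 0.0502 and 0.108: db/m 26-week replicates 2 to 5, db/db Unx 26-week replicates 2 to 8 and 10, db/m 35-week replicates 1 to 5, and db/db Unx 35-week replicates 5 and 6. With age in db/db Unx, 0 of 20 proximal tubule markers rose and 6 fell, 9 of 12 genes of injured tubule cells rose and none fell, and 8 of 11 tested macrophage and T cell markers rose and none fell; their part in the fall of Slc34a1 was not tested. The labels give no batch, so age and a batch cannot be told apart.

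Slc34a3 (ENSMUSG00000006469, chromosome 2, 25228898 to 25234364, minus strand) encodes NaPi-IIc, the other type II cotransporter of the proximal brush border. Its signal at 26 weeks ran from 31.5 over a median of 48.3 to 55.5 in db/db Unx, and was 52.4, 41.1, 37.3, 34.5 and 31.9 in db/m. The 35-week values were 36.8, 38.3, 34.7, 36.5 and 32.9 in db/db Unx, against 32.9 at the lowest, 46.2 at the median and 52.5 at the highest in db/m. The groups overlapped at both ages, and 3 of the 12 db/db Unx values at 26 weeks were 31.5 to 35.4 while the other 9 were 42.4 or above. The log2 change was 0.20 ± 0.12 at 26 weeks (95% interval -0.05 to 0.45, limma, adjusted p 0.218) and -0.30 ± 0.14 at 35 weeks (-0.58 to -0.02, adjusted p 0.101). The 35-week change passed the threshold without db/m replicate 5 (-0.38, adjusted p 0.0303), whose value was the lowest of its group, and when the 2 groups were fitted alone (adjusted p 0.0290).

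In each library Slc34a1 made up between 96.1% and 98.1% of the summed per-kb level of the 4 cotransporters. Its ratio to Slc34a3 per kb averaged 52.3 ± 8.80 in db/db Unx and 71.7 ± 10.03 in db/m at 26 weeks (SD, n = 12 and 5), and 55.3 ± 5.53 in db/db Unx and 66.0 ± 11.7 in db/m at 35 weeks (SD, n = 5 and 6). The ranges overlapped at both ages.

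Slc20a1 (ENSMUSG00000027397, chromosome 2, 129198764 to 129211616, plus strand) encodes PiT-1, a type III cotransporter that many cell types use to take up phosphate. In the 26-week libraries its signal ran from 19.98 over a median of 23.4 to 28.7 in db/db Unx, and was 21.3, 16.2, 14.7, 18.9 and 25.3 in db/m. At the later age it was 25.4, 21.7, 25.6, 30.9 and 31.02 in db/db Unx, against 10.5, 16.2 and 18.2 as the lowest, median and highest in db/m. The groups overlapped at 26 weeks, where all 12 db/db Unx libraries were above the db/m median, and did not overlap at 35 weeks. It rose by 0.29 ± 0.11 on the log2 scale at 26 weeks (limma, adjusted p 0.0347) and by 0.75 ± 0.13 at 35 weeks (adjusted p 9.17e-06), that is by 22.7% and 68.6%. The call at 26 weeks was lost after quantile normalization (0.25, adjusted p 0.0731) and without db/m replicate 2 (0.24, 0.120), 3 (0.21, 0.169) or 4 (0.29, 0.0625) or db/db Unx replicate 9 (0.27, 0.0549). The difference between the ages was 0.46 ± 0.17 (adjusted p 0.203). Set against Slc34a1 per kb, Slc20a1 amounted to 4.32 ± 0.553 per 1000 in db/db Unx and 2.95 ± 0.689 in db/m at 26 weeks, and to 5.81 ± 1.20 in db/db Unx and 2.29 ± 0.416 in db/m at 35 weeks. The ranges of this ratio overlapped at 26 weeks and did not overlap at 35 weeks.

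Slc20a2 (ENSMUSG00000037656, chromosome 8, 22476788 to 22569612, plus strand) encodes PiT-2, the type III cotransporter also found in the proximal brush border. At 26 weeks its signal ran from 41.9 over a median of 50.6 to 60.01 in db/db Unx, and was 47.8, 42.4, 46.1, 46.9 and 45.95 in db/m. At 35 weeks the signal was 67.02, 58.5, 46.02, 58.1 and 48.5 in db/db Unx, against 39.6, 61.04 and 66.4 as the lowest, median and highest in db/m. The groups overlapped at both ages. The log2 change was 0.14 ± 0.10 (95% interval -0.06 to 0.33, limma, adjusted p 0.290) and -0.06 ± 0.11 (-0.28 to 0.16, adjusted p 0.708).

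**Figure D3:**
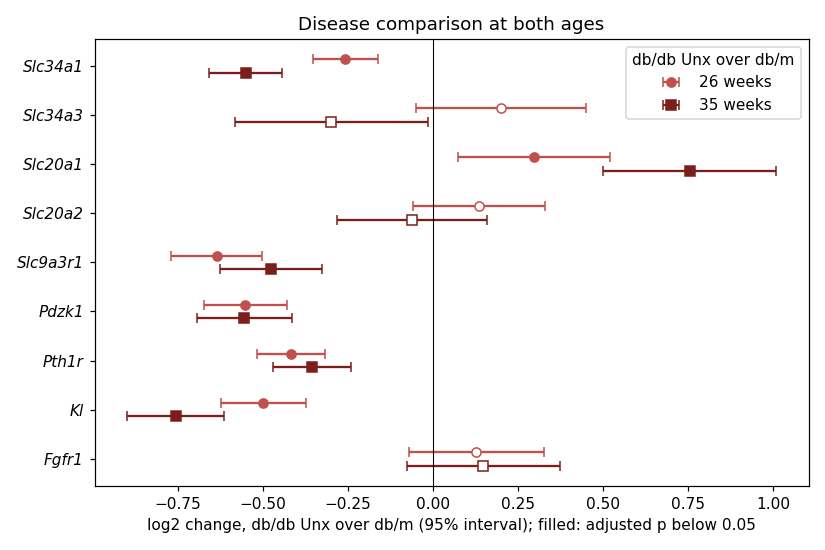
Log2 change of each gene, db/db Unx over db/m, at 26 weeks (circles) and 35 weeks (squares), with 95% intervals; filled symbols passed an adjusted p below 0.05 in limma. Slc34a1, Slc9a3r1, Pdzk1, Pth1r and Kl lay to the left at both ages and Slc20a1 to the right, on the deposited scale; after quantile normalization Slc34a1 moved to 0.20 at 26 weeks.

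The apical scaffolds were lower in db/db Unx at both ages. Slc9a3r1 (ENSMUSG00000020733, chromosome 11, 115163341 to 115181181, plus strand) encodes NHERF1, the PDZ protein that anchors NaPi-IIa at the brush border and couples the parathyroid hormone receptor to its signalling. Its signal at 26 weeks ran from 259 over a median of 307 to 363 in db/db Unx, and was 486, 453, 477, 490 and 474 in db/m. The values at 35 weeks were 325, 289, 339, 271 and 266 in db/db Unx, against 371, 417 and 442 as the lowest, median and highest in db/m. No db/db Unx library reached the db/m range at either age. It fell by 0.64 ± 0.07 on the log2 scale at 26 weeks (limma, adjusted p 4.61e-10) and by 0.48 ± 0.07 at 35 weeks (adjusted p 3.19e-06). Within db/m all 6 libraries of 35 weeks were below all 5 of 26 weeks, and the share of all genes that did so was not computed. The log2 change of -0.20 ± 0.07 was not called (limma, adjusted p 0.0930). It was called when the 2 db/m groups were fitted alone (adjusted p 0.0256).

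Pdzk1 (ENSMUSG00000038298, chromosome 3, 96829284 to 96870926, plus strand) encodes a scaffold with several PDZ domains that binds NaPi-IIa and other apical transporters. In the 26-week libraries its signal ran from 1057 over a median of 1220 to 1356 in db/db Unx, and was 1862, 1740, 1614, 1909 and 1710 in db/m. At 35 weeks the libraries gave 1303, 1028, 1136, 1047 and 987 in db/db Unx, against 1494, 1572 and 1865 as the lowest, median and highest in db/m. The groups did not overlap at either age. It fell by 0.55 ± 0.06 at 26 weeks (limma, adjusted p 2.37e-09) and by 0.56 ± 0.07 at 35 weeks (adjusted p 4.27e-08), and the difference between the ages was -0.003 ± 0.09. Pdzk1 shares 1333 exonic bases with Gpr89 on the other strand, and whether counting used strand is not given in the sources used here. Gpr89 averaged 66.7 in db/db Unx and 72.8 in db/m at 26 weeks, and 57.2 in db/db Unx and 70.9 in db/m at 35 weeks. Slc34a1 shares 545 exonic bases with Pfn3, whose highest group mean was 2.63. Slc20a2 shares 95 with Smim19, which had means of 45.9 in db/db Unx and 55.7 in db/m at 26 weeks. Slc20a1 shares 452 with 9830144P21Rik and 280 with Gm4430, Fgfr1 164 with Gm16159 and Pth1r 95 with Myl3, all on the other strand. These partners were absent from the deposited table, so their levels are not known.

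Pth1r (ENSMUSG00000032492, chromosome 9, 110722085 to 110747145, minus strand) encodes the receptor of parathyroid hormone. At 26 weeks its signal ran from 532 over a median of 577 to 643 in db/db Unx, and was 757, 808, 723, 727 and 818 in db/m. At 35 weeks it was 605, 541, 562, 482 and 527 in db/db Unx, against 631, 720 and 732 as the lowest, median and highest in db/m. The groups did not overlap, though the highest db/db Unx library of 35 weeks came close to the lowest db/m library. It fell by 0.42 ± 0.05 at 26 weeks (limma, adjusted p 1.33e-08) and by 0.36 ± 0.06 at 35 weeks (adjusted p 4.23e-06).

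Kl (ENSMUSG00000058488, chromosome 5, 150952607 to 150993817, plus strand) encodes alpha-Klotho, the co-receptor that lets FGF23 act through FGF receptors and that is also shed into the blood. Its signal at 26 weeks ran from 321 over a median of 395 to 436 in db/db Unx, and was 636, 576, 519, 535 and 516 in db/m. The 35-week values were 397, 364, 425, 319 and 321 in db/db Unx, against 601, 614 and 632 as the lowest, median and highest in db/m. The db/m libraries of 35 weeks lay close together and every db/db Unx library was far below them. It fell by 0.50 ± 0.06 on the log2 scale at 26 weeks (limma, adjusted p 2.98e-08) and by 0.76 ± 0.07 at 35 weeks (adjusted p 5.77e-11). The signal thus fell by 29.3% at 26 weeks and fell by 40.8% at 35 weeks, the largest fall among the 9 genes at that age. The difference between the ages was -0.26 ± 0.09 and did not pass (adjusted p 0.202), and the age changes were -0.11 ± 0.06 in db/db Unx (adjusted p 0.262) and 0.15 ± 0.07 in db/m (adjusted p 0.224).

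Fgfr1 (ENSMUSG00000031565, chromosome 8, 25513654 to 25575718, plus strand) encodes an FGF receptor that pairs with Klotho to bind FGF23. Its signal ran from 18.8 over a median of 27.5 to 35.03 in db/db Unx at 26 weeks, and was 24.4, 20.7, 27.1, 26.7 and 25.8 in db/m. At the later age it was 23.2, 31.6, 23.9, 28.3 and 27.8 in db/db Unx, against 22.2, 24.1 and 26.4 as the lowest, median and highest in db/m. The groups overlapped at both ages. The log2 change was 0.13 ± 0.10 at 26 weeks (95% interval -0.07 to 0.32, limma, adjusted p 0.334) and 0.15 ± 0.11 at 35 weeks (-0.08 to 0.37, adjusted p 0.336), so a fall of the size seen in Kl lay outside both intervals. Other FGF receptor genes differed from this. Fgfr4 had log2 changes of -0.44 at 26 weeks (limma, adjusted p 0.000212) and -0.51 at 35 weeks (adjusted p 0.000202). Those of Fgfr3 were 0.16 (adjusted p 0.183) and -0.27 (adjusted p 0.0481). Those of Fgfr2 were 0.65 (adjusted p 0.00103) and 0.47 (adjusted p 0.0404).

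With age, limma called 0 of the 9 genes in db/m, where 7.4% of all genes were called. In db/db Unx it called 1, Slc34a1, where 11.3% of all genes were called. Without adjustment 5 of the 9 genes had a p below 0.05 in db/m, as did 21.2% of all genes tested. Their log2 changes were -0.28 for Slc20a1, 0.33 for Slc20a2, -0.20 for Slc9a3r1, -0.14 for Pth1r and 0.15 for Kl. The change of Slc20a2 in db/m had an adjusted p of 0.0607 and passed without db/m 35-week replicate 5 (0.43, adjusted p 0.00563). In db/db Unx, Slc34a3 changed by -0.32 ± 0.12 (adjusted p 0.0921), and passed without 26-week replicate 9 (-0.36, adjusted p 0.0427) or 11 (-0.36, adjusted p 0.0363). Pdzk1 changed by -0.14 ± 0.06 (adjusted p 0.147) and passed without 35-week replicate 1 (-0.20, adjusted p 0.0263).

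Slc34a1, Slc9a3r1, Pdzk1 and Pth1r are known as proximal tubule genes, so their values are set beside proximal tubule markers. The summed signal of 20 proximal tubule markers, none of them among the 9 genes and none at 0 in any group, averaged 22225 in db/db Unx (range 21065 to 24223) and 30926 in db/m (29469 to 33087) at 26 weeks. At 35 weeks it averaged 19927 in db/db Unx (18958 to 21854) and 30074 in db/m (27438 to 31641). Of these markers 4 rose and 12 fell at 26 weeks, with a median log2 change of -0.21, and 2 rose and 11 fell at 35 weeks, with a median of -0.27. The markers differed by segment. Of 10 markers of the early segments S1 and S2, 6 rose and 1 fell at 26 weeks (median 0.44), while of 10 markers of the late segment S3 none rose and 8 fell (median -1.36), and at 35 weeks the counts were 4 and 1 for the early and 1 and 8 for the late segments. Slc27a2, a fatty acid transporter, and Acsm2, an acyl-CoA synthetase, which make up much of the sum, fell by 0.87 and 1.10 on the log2 scale at 26 weeks. The part of these markers in the changes of the 9 genes was not tested.

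Per 1000 units of that marker sum, Slc34a1 averaged 207 in db/db Unx (193 to 218) and 177 in db/m (170 to 186) at 26 weeks, without overlap, and 197 in db/db Unx (181 to 214) and 191 in db/m (180 to 207) at 35 weeks, with overlap. Slc9a3r1 averaged 13.8 in db/db Unx (11.7 to 16.02) and 15.4 in db/m (14.7 to 16.2) at 26 weeks, and 14.96 in db/db Unx (13.9 to 17.3) and 13.8 in db/m (11.9 to 14.9) at 35 weeks, with overlap at both ages. Pth1r averaged 25.8 in db/db Unx (23.8 to 29.5) and 24.8 in db/m (22.9 to 26.7) at 26 weeks, with overlap, and 27.3 in db/db Unx (24.7 to 28.7) and 23.1 in db/m (20.8 to 24.3) at 35 weeks, without overlap. Pdzk1 averaged 54.2 in db/db Unx and 57.1 in db/m at 26 weeks, and 55.1 in db/db Unx and 53.8 in db/m at 35 weeks, and overlapped at both ages. Kl averaged 17.7 in db/db Unx (15.05 to 19.6) and 17.98 in db/m (16.8 to 19.2) at 26 weeks, and 18.3 in db/db Unx (16.4 to 21.7) and 20.5 in db/m (19.5 to 21.9) at 35 weeks, also with overlap. Relative to these 20 markers Slc34a1 was higher in db/db Unx at 26 weeks and Pth1r at 35 weeks, and Slc9a3r1, Pdzk1 and Kl were not separated between the groups. Slc20a1 averaged 1.06 in db/db Unx (0.897 to 1.32) and 0.622 in db/m (0.4996 to 0.821) at 26 weeks. At 35 weeks it averaged 1.36 in db/db Unx (1.10 to 1.64) and 0.523 in db/m (0.340 to 0.624), with no overlap at either age. Slc20a2 was likewise higher without overlap, at 1.74 to 2.67 in db/db Unx and 1.40 to 1.56 in db/m at 26 weeks. At 35 weeks Slc20a2 was at 2.35 to 3.07 in db/db Unx and 1.32 to 2.20 in db/m. Fgfr1 overlapped at 26 weeks and was higher without overlap at 35 weeks, at 1.06 to 1.60 in db/db Unx and 0.722 to 0.837 in db/m. Slc34a3 overlapped at both ages. Because the marker sum was itself lower in db/db Unx, a gene with an unchanged signal is higher on this scale. On the deposited scale Slc20a2 and Fgfr1 were called at neither age. For ratios to this sum, the share of all genes without overlap was not computed.

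The direction depended on the marker list. The sum of the 10 early segment markers, a list taken up after the values above were seen, averaged 5666 in db/db Unx (4749 to 6091) and 4845 in db/m (4512 to 5107) at 26 weeks, and 5153 in db/db Unx (4889 to 5542) and 5011 in db/m (4497 to 5391) at 35 weeks. Per 1000 units of it Slc34a1 averaged 812 in db/db Unx (719 to 871) and 1133 in db/m (1070 to 1186) at 26 weeks, and 762 in db/db Unx (688 to 842) and 1147 in db/m (1097 to 1264) at 35 weeks, lower in db/db Unx without overlap at both ages. Slc9a3r1, Pdzk1, Pth1r and Kl were likewise lower in db/db Unx without overlap at both ages on this scale. Kl was at 69.8 in db/db Unx and 114.8 in db/m at 26 weeks, and at 71.0 in db/db Unx and 122.9 in db/m at 35 weeks. Slc20a1 overlapped at 26 weeks, at 3.34 to 5.79 in db/db Unx and 3.07 to 5.17 in db/m. At 35 weeks Slc20a1 was higher without overlap, at 4.44 to 6.01 in db/db Unx and 2.00 to 4.05 in db/m. Slc20a2 and Fgfr1 overlapped at both ages. The early segment sum averaged higher in db/db Unx, and the share of all genes without overlap on this scale was not computed.

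**Figure D4:**
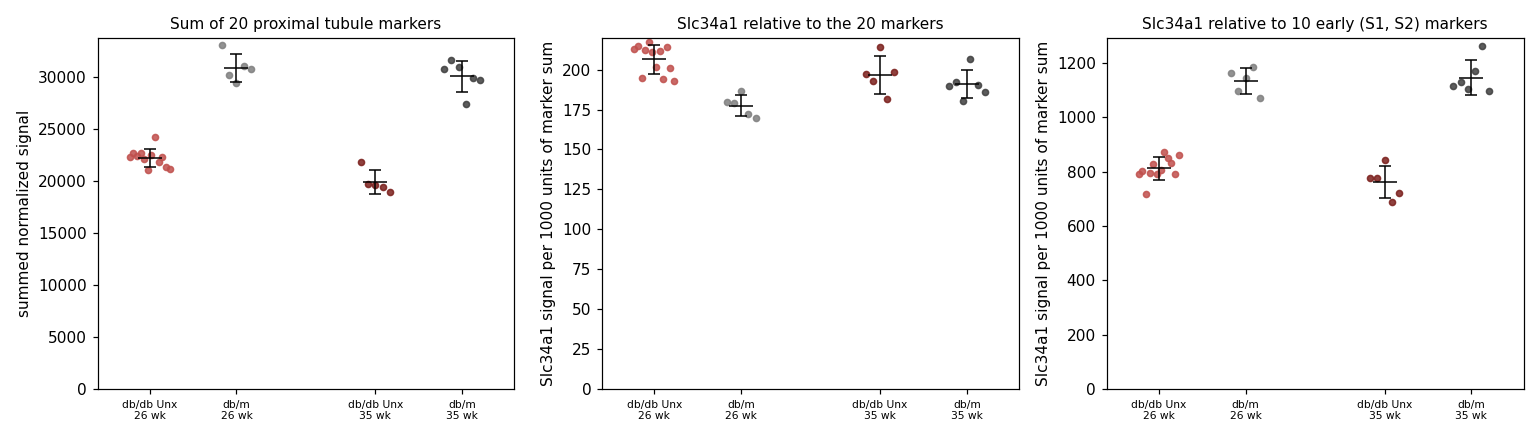
Left, summed signal of 20 proximal tubule markers in each library; centre, Slc34a1 signal per 1000 units of that sum; right, Slc34a1 signal per 1000 units of the sum of 10 early segment (S1 and S2) markers; lines are means and SDs and the axes start at 0. The marker sum was lower in db/db Unx at both ages, whereas Slc34a1 relative to it averaged 207 in db/db Unx and 177 in db/m at 26 weeks and overlapped at 35 weeks, and relative to the early segment markers it averaged 812 in db/db Unx and 1133 in db/m at 26 weeks and was lower in db/db Unx at both ages.

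Kl is also made in the distal tubule, of which the markers of the convoluted and connecting parts moved the other way. Of 12 distal convoluted and connecting tubule markers 7 rose and none fell at 26 weeks (median log2 change 0.43), and 8 rose and none fell at 35 weeks (median 0.49). Their sum averaged 4420 in db/db Unx (3781 to 5077) and 3367 in db/m (3223 to 3490) at 26 weeks, and 4284 in db/db Unx (3587 to 4978) and 2980 in db/m (2799 to 3568) at 35 weeks. Genes of injured tubule cells rose too, 11 of 12 at 26 weeks and 12 of 12 at 35 weeks with none falling, as did 6 of 11 and 7 of 11 tested fibroblast and pericyte genes, again with none falling. Of 11 tested macrophage and T cell markers none rose and 3 fell at 26 weeks, and 6 rose and none fell at 35 weeks; their sum ran from 334 to 1034 in db/db Unx and from 495 to 1709 in db/m at 26 weeks, and from 388 to 3795 in db/db Unx and from 403 to 565 in db/m at 35 weeks. Of 9 podocyte markers 4 rose at each age, and of 8 principal cell markers 6 rose at 26 weeks and 4 at 35 weeks. None fell in either list. Other lists held genes that fell. Of 8 thick ascending limb markers 5 rose and 2 fell at 26 weeks, and 1 rose and 3 fell at 35 weeks. Of 10 endothelium markers 0 rose and 3 fell at 26 weeks, and 1 rose and 2 fell at 35 weeks. For all these lists, their part in the changes of the 9 genes was not tested. Per 1000 units of the distal convoluted and connecting tubule marker sum, Kl was lower in db/db Unx without overlap at both ages. It averaged 89.5 in db/db Unx (73.9 to 110) and 165 in db/m (148 to 185) at 26 weeks. At 35 weeks it averaged 86.3 in db/db Unx (73.1 to 111) and 207 in db/m (172 to 218). The distal sum was itself higher in db/db Unx, so a gene with an unchanged signal is lower on this scale. The share of all genes without overlap was not computed for it.

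The list of genes that act around these 9 in phosphate hormone signalling held 35 genes, of which 30 were in the table and 28 were tested. At 26 weeks 8 rose and 9 fell, and at 35 weeks 8 rose and 8 fell, with median log2 changes of -0.03 and -0.06. Cyp27b1, the enzyme that makes active vitamin D and that parathyroid hormone raises and FGF23 lowers, rose most, to a mean of 385 ± 116 in db/db Unx against 17.9 ± 2.47 in db/m at 26 weeks, a log2 change of 4.31 ± 0.24 (limma, adjusted p 2.07e-13), and to 144 ± 66.6 in db/db Unx against 10.8 ± 3.89 in db/m at 35 weeks (3.57 ± 0.28, adjusted p 1.21e-10). Stc1, which encodes stanniocalcin-1, a hormone tied to calcium and phosphate balance, averaged 19.5 in db/db Unx and 6.80 in db/m at 26 weeks (1.34, adjusted p 4.30e-07) and 24.0 in db/db Unx and 12.7 in db/m at 35 weeks (0.87, adjusted p 0.00145). Frzb, a secreted Wnt antagonist of the frizzled-related family, fell by 1.69 at 26 weeks and by 1.17 at 35 weeks. Egr1, an early response gene that FGF23 induces in kidney, averaged 4.69 in db/db Unx and 3.95 in db/m at 26 weeks (0.18, adjusted p 0.499) and 10.3 in db/db Unx and 3.27 in db/m at 35 weeks (1.40, adjusted p 2.33e-06). Its difference between the ages was 1.22 (adjusted p 0.0392), and 1.13 (adjusted p 0.238) without replicates 3, 5 and 6 of db/db Unx at 35 weeks. Other genes of the list known to respond to FGF signals were mixed. Dusp6, Spry4 and Etv5 were called lower in db/db Unx at 26 weeks and were not called at 35 weeks. Dusp6 had log2 changes of -0.48 (limma, adjusted p 5.87e-05) and 0.04 (adjusted p 0.798). Those of Spry4 were -0.71 (0.0109) and -0.38 (0.268), and those of Etv5 -0.36 (0.0131) and -0.10 (0.596). Spry1 (-0.22, adjusted p 0.0517, and 0.03, adjusted p 0.872) and Spry2 (0.004, adjusted p 0.990, and 0.07, adjusted p 0.807) were called at neither age. Etv4 was too low to be tested. Fgf23, Klb, Ptger2, Phex and Pth2r were absent from the deposited table, so they could not be tested.

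Of 22 other phosphate and apical scaffold genes 21 were tested. At 26 weeks 4 rose and 8 fell, and at 35 weeks 4 rose and 7 fell. Slc17a3, an organic anion transporter once described as a phosphate transporter, had means of 229 in db/db Unx and 795 in db/m at 26 weeks (-1.79, adjusted p 3.99e-13) and 209 in db/db Unx and 676 in db/m at 35 weeks (-1.71, adjusted p 2.07e-11). Its neighbour in function Slc17a1 fell by 0.77 at 26 weeks and by 0.61 at 35 weeks. Slc34a2, the type II cotransporter of gut and lung, was rare but rose, with means of 4.38 in db/db Unx and 1.21 in db/m at 26 weeks (1.28, adjusted p 4.05e-07) and 6.89 in db/db Unx and 2.62 in db/m at 35 weeks (1.13, adjusted p 3.88e-05). Alpl, the alkaline phosphatase that frees phosphate at the cell surface, rose by 0.75 at 26 weeks and by 0.54 at 35 weeks.

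Deviations of single libraries from their group means, as log2 values over the 28 libraries, gave a description of which of the 9 genes varied together. Values of a library share its RNA, its depth and its scaling, so no p is given. Pearson r was 0.64 for Slc34a1 with Kl, 0.63 for Slc9a3r1 with Pdzk1, 0.56 for Pdzk1 with Kl and 0.55 for Slc34a1 with Slc34a3, where the 95th percentile of r with all genes lay between 0.34 and 0.41 for the 9 genes. Among the 12 db/db Unx libraries of 26 weeks alone, r of Slc34a1 with Slc34a3 was 0.71 and that of Pdzk1 with Fgfr1 was -0.68. These were the highest and lowest of the pairs, and r with all genes was not computed for these 12 libraries. Fgfr1 went against Pdzk1 (-0.56), where the 5th percentile of r with all genes lay between -0.39 and -0.34 for the 9 genes, and r of the type III pair, -0.31, lay above that. The genes most alike to Slc34a1 by this measure were Atp6v1b2 (0.71), Ndfip1 (0.71), Plekhb2 (0.70), Dqx1 (0.69) and Ass1 (0.68). Those most alike to Slc34a3 were St7 (0.82), Tm9sf4 (0.69), Aak1 (0.68), Clptm1 (0.67) and Slc5a2 (0.66), and those most alike to Kl were Glb1l (0.78), Slc22a22 (0.74), Scfd1 (0.72), Fads3 (0.70) and Ehd1 (0.69).

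**Figure D5:**
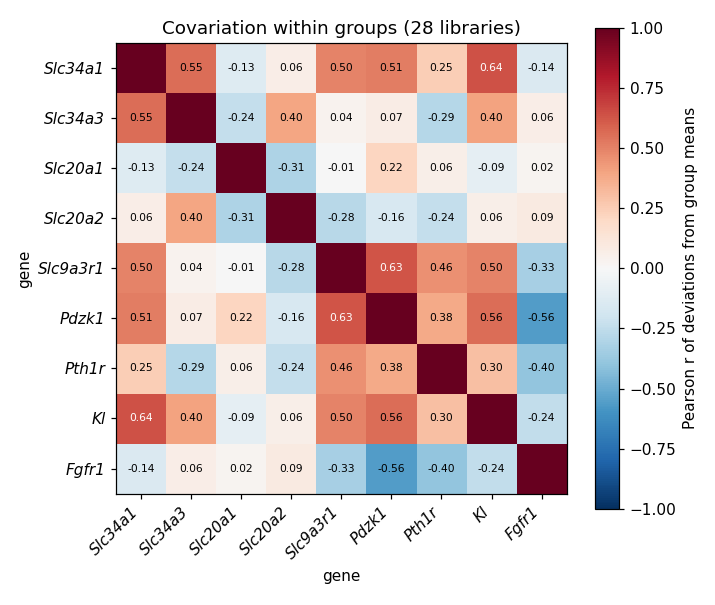
Pearson r between the 9 genes of the deviations of log2 values from the group means over 28 libraries, printed in each cell. The highest values off the diagonal are 0.64 for Slc34a1 with Kl and 0.63 for Slc9a3r1 with Pdzk1, and the lowest is -0.56 for Pdzk1 with Fgfr1.

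Upstream sequence was read from the RefSeq promoter table of GRCm38.p6, which held 7 of the 9 genes. Stretches are shown for the scaffold Slc9a3r1 and the co-receptor Kl, which were lower in db/db Unx at both ages, with the matches of the motifs searched in capitals. The 250 bases before each start were searched on both strands. For HNF4-like sites the search used the letters CAAAGTCC. The clock-type E-box was represented by the letters CACGTG. Sites of the AP-1 family were sought with TGANTCA. The remaining motifs were GC boxes, with the letters GGGCGG. A further promoter element was the CCAAT box, by those letters. Finally, TATA boxes were sought with the letters TATAAA. The stretches are Slc9a3r1 at chr11:115163091-115163340 and Kl at chr5:150952357-150952606, both on the plus strand.
Slc9a3r1: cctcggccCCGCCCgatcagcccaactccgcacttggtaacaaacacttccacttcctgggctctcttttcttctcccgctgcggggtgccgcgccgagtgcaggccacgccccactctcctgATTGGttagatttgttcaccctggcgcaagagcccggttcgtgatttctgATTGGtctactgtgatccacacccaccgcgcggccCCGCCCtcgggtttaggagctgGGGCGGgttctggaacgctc
Kl: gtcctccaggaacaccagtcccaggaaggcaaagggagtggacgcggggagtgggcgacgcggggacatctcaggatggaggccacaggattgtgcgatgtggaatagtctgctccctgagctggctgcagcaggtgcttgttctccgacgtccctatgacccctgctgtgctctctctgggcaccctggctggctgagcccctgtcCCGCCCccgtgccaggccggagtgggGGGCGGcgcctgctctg
Slc9a3r1 held 3 GC boxes and 2 CCAAT boxes, and Kl held 2 GC boxes, motifs found in 32.7% (GC box) and 33.8% (CCAAT box) of all 32851 promoters of the same length. The 250 bases before the RefSeq start of Slc34a1, which lies inside the gene span given above, had a GC content of 46.4% and 1 CpG, against 62.8% and 20 CpGs for Slc9a3r1 and 66.8% and 13 CpGs for Kl, where the median of all promoters was 52.4% and 6. A match shows only that the letters are there.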

How the data were processed

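Total RNA of 28 kidneys' libraries had been extracted with TRIzol and RNeasy and made into Nextera XT libraries, per the labels' protocols. Reads were processed with DRAGEN against GRCm38 (mm10), per the submitters' processing notes; its version, the annotation, the scaling and the gene filter were not given in the sources used here. Deposited values are a normalized signal per gene, near whole multiples of a step in each library (88.6% to 91.9% of low values within 0.1), with sums of 896873 to 1018930. Symbols, coordinates and exon lengths came from the GENCODE annotation of GRCm38. Genes with a signal of at least 1 in at least 5 libraries were fitted as log2(value + 1) with limma 3.58.1 in R 4.3.3 (trend, robust, 4 group means), two-sided, with Benjamini-Hochberg adjustment over 13495 genes and a threshold of 0.05; the pseudocount understates changes of low genes. The code was tested on simulated data. Printed ± values beside log2 changes are standard errors and beside means SDs. The genes and lists were chosen with earlier results of these data known. Beyond the 9 genes, the rule named up to 4 called genes per list by smallest adjusted p. It also named the 5 genes most correlated with each of Slc34a1, Slc34a3 and Kl. Gpr89, Pfn3, Smim19, Dusp6, Spry1, Spry2, Spry4, Etv4, Etv5, Fgfr2, Fgfr3 and Fgfr4 were added after their values were seen. Alternatives tried were 3 scalings, other pseudocounts and filters, no robust moderation, only the 2 groups compared, the replicate block, each library left out, 3 libraries left out and, chosen after seeing the data, the early segment marker sum.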

Additional observations from a re-analysis of the deposited data

Results flagged for a closer look

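Slc20a2 had a value of 39.6 in replicate 5 of db/m intact at 35 weeks, where the other 5 libraries of the group lay between 57.3 and 66.4. The gap to the nearest library was 0.66 of the range of the group, above the limit for 6 samples. Chance flags about 1 group in 20, and 27 groups were looked at. Without this library the change of Slc20a2 from 26 to 35 weeks in db/m was 0.43 (limma, adjusted p 0.00563), against 0.33 with it (adjusted p 0.0607).

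The disease comparison of Slc34a1 differed between the ages by a test of that difference, with a log2 value of -0.29 for 35 weeks minus 26 weeks (limma, adjusted p 0.0424). Without replicates 3, 5 and 6 of db/db Unx at 35 weeks the value was -0.24 (adjusted p 0.309).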

How the results depend on the processing

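Slc9a3r1, Pdzk1, Pth1r and Kl at both ages, and Slc20a1 at 35 weeks, kept their direction and call under every alternative run. Slc34a1 at 26 weeks reversed to 0.20 after quantile normalization; the cause was not tested. Other changes of sign were in uncalled values near 0. After quantile normalization the age change of Slc9a3r1 in db/db Unx was 0.0087. After median-of-ratios scaling the Pdzk1 difference between ages was 0.0058. After rescaling to the same sum Slc20a2 at 35 weeks was 0.0057 and Fgfr1 was 0.011 and 0.015 with age in db/db Unx and db/m and -0.0040 for the difference between ages. That scaling called 3587 genes higher and 1647 lower at 26 weeks, against 2318 and 2395, and 2787 and 1683 at 35 weeks, against 2148 and 2209.

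No gene of the 9 was called for the difference between ages after median-of-ratios scaling or without robust moderation (0 each); 1 was called with age in db/m after rescaling to the same sum, and 1 when only the 2 groups were fitted. Without the 3 db/db Unx libraries of 35 weeks that lay apart, calls over all genes were 2408 for the disease comparison at 35 weeks, 8 with age in db/db Unx and 0 for the difference between ages, with 0 of the 9 genes in either of the last 2, and Slc20a2 at 35 weeks was 0.12, Slc9a3r1 with age in db/db Unx 0.0046 and the Pdzk1 difference between ages 0.077. With 1 library left out, calls ranged from 4176 to 4778 at 26 weeks (5 to 6 of the 9), 3743 to 4396 at 35 weeks (6 to 7), 630 to 1748 with age in db/db Unx (1 to 2), 578 to 1140 with age in db/m (0 to 1) and 7 to 249 for the difference between ages (0 to 1). Over the same fits the Pdzk1 difference between ages ranged from -0.066 to 0.040, that of Fgfr1 from -0.037 to 0.084, Fgfr1 with age in db/db Unx from -0.080 to 0.029 and Slc20a2 at 35 weeks from -0.17 to 0.00040. Per 1000 units of the early segment marker sum, an alternative chosen after seeing the data, Slc34a1 in db/db Unx minus db/m was -321 at 26 weeks and -385 at 35 weeks, against 29.1 and 5.93 with all 20 proximal tubule markers; the cause was not tested. With the longest transcript as length, the Slc34a1 share of the cotransporters was 96.5% in db/db Unx and 97.4% in db/m at 26 weeks, and 96.1% in db/db Unx and 97.2% in db/m at 35 weeks.

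Same-numbered replicates did not vary together (30 pairs, mean r of deviations -0.011, 0 above 0.1), so the numbers were not taken to pair the samples. With the replicate block, calls were 483 with age in db/db Unx (2 of the 9 genes) and 29 for the difference between ages; Slc34a3 passed at 26 weeks (0.35, limma, adjusted p 0.00961), at 35 weeks (-0.29, 0.0292) and with age in db/db Unx (-0.46, 0.0120), and Slc20a1 at 26 weeks did not (0.24, 0.148).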
